A study of Mus musculus with 44 samples.

Results

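The 10 genes described here encode transcription factors that mark and shape mesenchymal cells: Twist1, Twist2, Prrx1, Prrx2, Tbx15, Tbx18, Tcf21, Osr1, Snai2 and Runx2. They were taken by their symbols from a table of 55486 genes, and all 10 had enough reads to be tested. Their levels were measured in mammary fibroblasts sorted into CD26+ and CD26- cells, from normal tissue and from tumors.

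Transcription factors of these families act in the embryonic mesenchyme of the limb, face, body wall, kidney and heart lining, and many stay on in adult connective tissue, where their combination differs between fibroblasts of different origin. TWIST proteins are basic helix-loop-helix factors that pair with E proteins and bind E-boxes, SNAI2 is a zinc-finger repressor that also binds E-boxes, and RUNX2 binds DNA together with its partner CBFB and is required for bone formation. Several of them are known from epithelial-mesenchymal transition, in which epithelial cells acquire mesenchymal traits. Here the cells were sorted as fibroblasts by the absence of markers of other cell types. A part of cells that had undergone this transition was not tested.

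RNA sequencing was performed on 44 libraries from 13 EN1-Cre;mTmG mice, whose cells switch from tdTomato to GFP when they or their ancestors have expressed En1. All mice carried this genotype and were transplanted with mammary tissue: 3 received control tissue, 5 received WB1P tissue and 5 received WB1P-Myc tissue. WB1P donor epithelium loses Brca1 and Trp53 through WapCre (Cre under a milk protein promoter, active in mammary epithelium), and WB1P-Myc additionally overexpresses Myc after this Cre has acted. The labels give the sorted fibroblasts the genotype of the host. Control donor mice were WapCre-negative. The recipients' fat pads were not cleared, so their own mammary ducts remained.

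Fibroblasts were sorted as cells without EpCAM, CD49f, CD31 and CD45, then split by CD26 (the surface peptidase encoded by Dpp4) and GFP. Below, fibroblasts from control-transplanted glands are called normal fibroblasts (NFs) and those from tumors cancer-associated fibroblasts (CAFs). The libraries with and without GFP were added per mouse and CD26 class, which gave 25 sums: 3 of CD26- NFs, 3 of CD26+ NFs, 5 of WB1P CD26- CAFs, 4 of WB1P CD26+ CAFs, 5 of WB1P-Myc CD26- CAFs and 5 of WB1P-Myc CD26+ CAFs. WB1P mouse 10 gave a CD26- sum only. Each control label carries a pair of animal numbers and was counted as 1 mouse, and WB1P-Myc mice 23 and 69 are marked 8x8 in their labels. In the paper's methods this size in mm stands for the advanced stage of both tumor models. The paper describes the tumors of this experiment as end-stage. Whether the mark gives a tumor size is not stated. The controls were age-matched.

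Library totals were between 5790599 and 15240328 counts, with a median of 12818093. Dpp4 was at 0.620 to 15.3 CPM, counts scaled to library size, in the CD26- sums and at 234 to 805 CPM in the CD26+ sums, so each sum carried the CD26 class of its label. The 8 fibroblast markers summed to between 20545 and 57744 CPM. Single markers of this list moved both ways from CD26- NFs to WB1P CD26- CAFs. Mean Col1a1 rose from 12508 to 23594 CPM, while Pdgfra fell from 1452 to 424 CPM and Dcn from 4580 to 1016 CPM. In NFs the summed level of the 10 pericyte and mural cell markers was 232 to 432 CPM (CD26-) and 178 to 196 CPM (CD26+). In CAFs it was 2026 to 9792 CPM (CD26-) and 211 to 455 CPM (CD26+). None of the 10 was at 0 throughout a group. The sums of the other marker lists reached at most 193 CPM for epithelial, 250.01 for immune, 520.3 for endothelial, 68.2 for Schwann, 15.4 for adipocyte and 269 for skeletal muscle markers, and proliferation markers summed to 84.3 to 211 CPM in NFs and 214 to 507 CPM in CAFs. In bulk samples, fewer cells of a type and less RNA per cell cannot be told apart.

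The promoters of Twist1 and Twist2 are printed as those of a pair of relatives with opposite directions between the CD26 classes of CAFs, and those of Tbx18 and Runx2 as the member windows that held a motif searched for. Each sequence runs 5′ to 3′ on the gene's strand from 250 bases before to 50 bases after the RefSeq transcript start (GRCm38.p6), and 7 of the 10 genes had an entry. Capitals mark matches to the E-box CANNTG, the motif of TWIST and SNAI2, and to the RUNX core ACCACA or its reverse complement TGTGGT, both searched on both strands. The windows are chr12:33957421-33957720 on the plus strand for Twist1, chr1:91801211-91801510 on the plus strand for Twist2, chr9:87731211-87731510 on the minus strand for Tbx18 and chr17:44814578-44814877 on the minus strand for Runx2.
Twist1: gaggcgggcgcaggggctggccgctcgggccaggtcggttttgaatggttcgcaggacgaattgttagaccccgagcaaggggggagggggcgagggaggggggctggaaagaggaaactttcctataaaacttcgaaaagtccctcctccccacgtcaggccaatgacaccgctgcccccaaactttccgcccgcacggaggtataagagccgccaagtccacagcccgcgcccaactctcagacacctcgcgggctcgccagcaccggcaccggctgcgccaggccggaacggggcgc
Twist2: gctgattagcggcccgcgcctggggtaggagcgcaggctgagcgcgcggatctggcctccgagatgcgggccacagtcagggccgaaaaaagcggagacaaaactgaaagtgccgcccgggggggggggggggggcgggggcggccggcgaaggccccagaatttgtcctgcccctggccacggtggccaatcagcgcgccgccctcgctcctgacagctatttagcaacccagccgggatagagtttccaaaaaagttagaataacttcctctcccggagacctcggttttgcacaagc
Tbx18: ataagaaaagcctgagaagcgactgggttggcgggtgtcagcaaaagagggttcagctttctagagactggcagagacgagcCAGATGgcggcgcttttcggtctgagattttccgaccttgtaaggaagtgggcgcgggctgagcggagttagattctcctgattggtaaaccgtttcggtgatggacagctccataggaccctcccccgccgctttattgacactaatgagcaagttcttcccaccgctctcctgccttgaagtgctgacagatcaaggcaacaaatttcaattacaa
Runx2: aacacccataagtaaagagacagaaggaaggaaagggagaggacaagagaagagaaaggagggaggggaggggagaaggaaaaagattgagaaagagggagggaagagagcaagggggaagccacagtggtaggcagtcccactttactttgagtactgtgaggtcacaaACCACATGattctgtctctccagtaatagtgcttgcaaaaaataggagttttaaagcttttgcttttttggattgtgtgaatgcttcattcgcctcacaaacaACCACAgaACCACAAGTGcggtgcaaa

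The Runx2 window held 3 RUNX cores, at positions -80, 23 and 31 from the transcript start, and 2 E-boxes, at -78 and 35. Both E-boxes overlapped a RUNX core, so each such pair is a single stretch of capitals. Over all 32544 RefSeq promoters of the same length, 16.7% held the RUNX core at least once and 72.3% held an E-box. Tbx18 had 1 E-box at -168 and no RUNX core, and the windows of Twist1, Twist2, Prrx1, Prrx2 and Tcf21 held neither motif. A match says only that the letters occur in this window.

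On the GRCm38 assembly the members lie on separate chromosomes apart from the pair Twist1 and Osr1 on chromosome 12 and the pair Twist2 and Prrx1 on chromosome 1. Twist1 (ENSMUSG00000035799) occupies positions 33957671 to 33959829 of chromosome 12, and Osr1 (ENSMUSG00000048387) positions 9570116 to 9581500. Chromosome 1 holds Twist2 (ENSMUSG00000007805) at 91801461 to 91848028 and Prrx1 (ENSMUSG00000026586) at 163245119 to 163313710. Prrx2 (ENSMUSG00000039476) lies on chromosome 2 from 30834972 to 30881251, Tbx15 (ENSMUSG00000027868) on chromosome 3 from 99240381 to 99354259, Tbx18 (ENSMUSG00000032419) on chromosome 9 from 87702800 to 87731260 and Tcf21 (ENSMUSG00000045680) on chromosome 10 from 22817281 to 22820174. Snai2 (ENSMUSG00000022676) lies on chromosome 16 from 14705852 to 14709385 and Runx2 (ENSMUSG00000039153) on chromosome 17 from 44495987 to 44814797. There were 3 members that share exonic sequence with a gene on the other strand: Twist2 over 1477 bases with Gm29100, Tbx18 over 970 bases with D030062O11Rik and Runx2 over 519 bases with Runx2os1. Library preparation was stranded, but whether the counting used the strand is not given in the sources used here. The partner genes averaged at most 1.67 CPM in any of the 6 groups.

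Levels between genes can only be compared per length of exon. On the scale of CPM per kilobase of exon, Twist1 or Prrx1 was the highest member in every group and Tcf21 the lowest. In CD26- NFs, Twist1 averaged 66.1 ± 8.88 CPM per kilobase (SD, n = 3) and Prrx1 19.8 ± 9.16, whereas in WB1P CD26- CAFs Prrx1 led with 44.2 ± 2.55 (SD, n = 5) and Twist1 followed with 29.9 ± 2.58. Tcf21 averaged between 0.0945 CPM per kilobase in WB1P CD26- CAFs and 2.04 in CD26+ NFs.

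**Figure D1:**
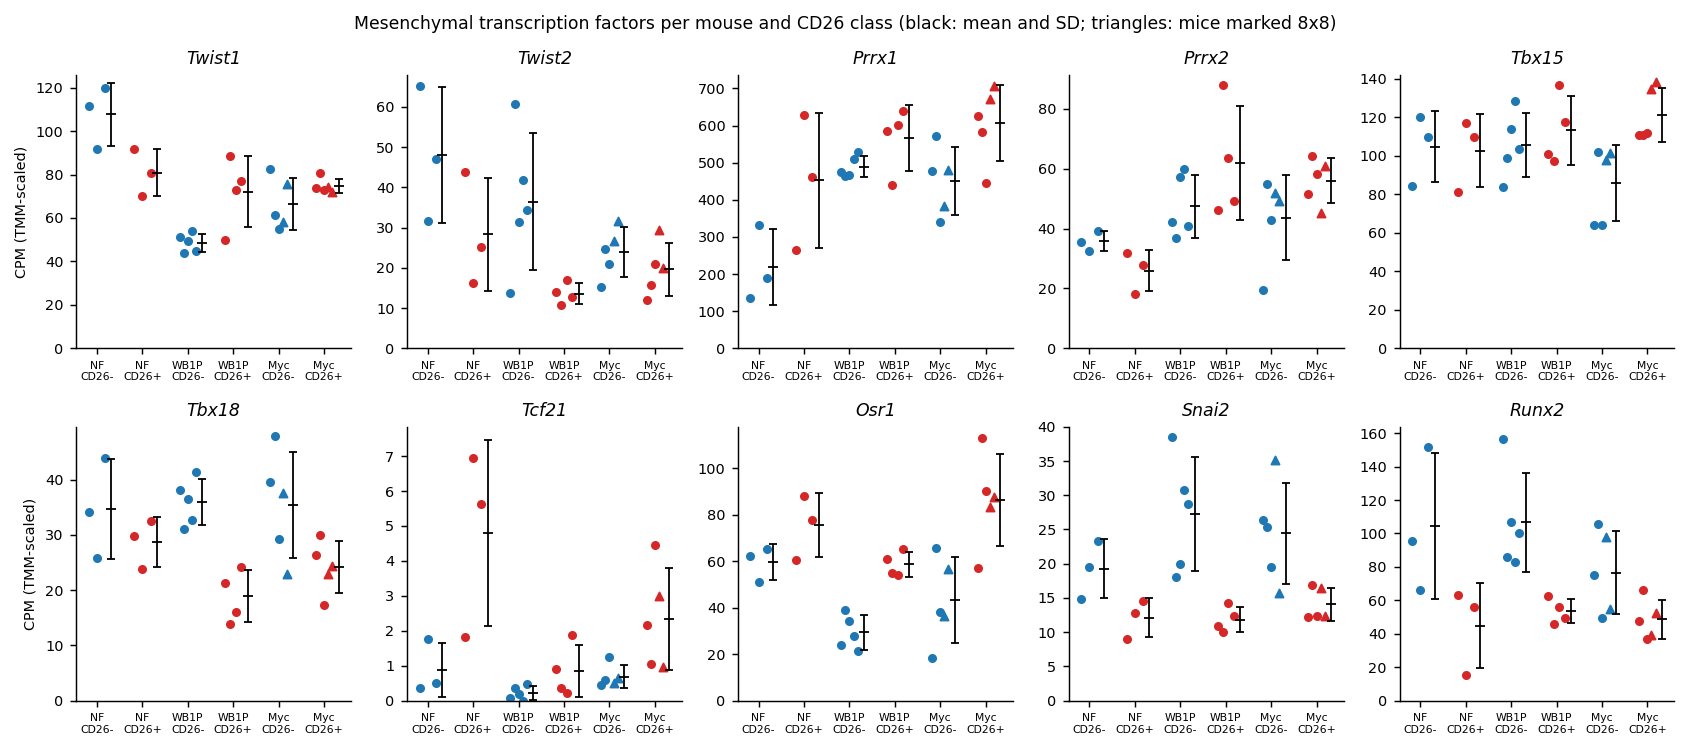
Level of each of the 10 genes in TMM-scaled CPM (vertical axes from 0, each with its own range) in the 6 groups of mice and CD26 class; points are mice, triangles are the mice marked 8x8, and black marks give the mean and SD. Twist1 lies lower in CD26- CAFs than in CD26- NFs, the Prrx2 points of CD26+ CAFs lie above those of CD26+ NFs, and Tcf21 stays at 6.95 CPM or less in every mouse.

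The first comparison asked how CD26+ and CD26- fibroblasts of tumors differ in these factors. Among CAFs, Osr1, Tcf21, Twist1 and Tbx15 were higher in CD26+ cells, and Snai2, Twist2, Runx2 and Tbx18 were lower. That made 8 of 10 genes called at an adjusted p under 0.05 (edgeR quasi-likelihood test, 9 CD26+ and 10 CD26- sums), where 39% of all 16601 genes tested were called, 19.1% higher and 19.9% lower. The median absolute log2 fold change was 0.78 for the 10 genes and 0.34 for all genes. None passed the study's additional limit of an absolute log2 fold change over 2, which 7.61% of all genes passed. The 10 genes were chosen with earlier results of these data known, so their count does not test the list.

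Osr1, an odd-skipped zinc-finger factor of kidney, gonad and connective tissue progenitors, was at 54.0 to 113 CPM in CD26+ CAFs (median 65.2) and at 18.5 to 65.6 CPM in CD26- CAFs (median 35.4). The ranges overlapped, yet within each of the 9 tumor mice with both classes the CD26+ value was the higher one. The log2 fold change was 1.00 ± 0.18 (SE; edgeR, adjusted p = 9.83e-05), with the same size in WB1P (1.00 ± 0.26) and WB1P-Myc (1.00 ± 0.24).

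Tcf21, a basic helix-loop-helix factor of visceral and cardiac mesenchyme, was the scarcest member. It was at 0.219, 0.362, 0.897 and 1.87 CPM in the CD26+ CAFs of the 4 WB1P mice and at 0.955, 1.06, 2.15, 2.99 and 4.46 CPM in those of the WB1P-Myc mice. CD26- CAFs had 0 to 0.481 CPM in WB1P and 0.444 to 1.26 CPM in WB1P-Myc. The CD26+ value was higher in 9 of 9 mice, and the fitted log2 fold change was 1.83 ± 0.49 (edgeR, adjusted p = 0.00491), a value that rests on few reads.

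Snai2, the repressor also called Slug, showed the opposite direction. CD26+ CAFs had 9.96 to 16.9 CPM (median 12.4) and CD26- CAFs 15.7 to 38.5 CPM (median 25.8), and CD26+ cells were lower in 9 of 9 mice. The log2 fold change was -0.99 ± 0.16 (edgeR, adjusted p = 4.07e-05). It was -1.19 ± 0.24 in WB1P and -0.80 ± 0.22 in WB1P-Myc.

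Runx2, best known as the regulator of osteoblast formation, had 37.1 to 66.3 CPM in CD26+ CAFs (median 49.6) and 49.5 to 157 CPM in CD26- CAFs (median 91.7). Every one of the 9 mice had less Runx2 in its CD26+ cells. The log2 fold change was -0.82 ± 0.22 (edgeR, adjusted p = 0.00507).

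Tbx18, a T-box factor of somite, sinus node and mural cell lineages, fell from 22.8 to 47.8 CPM in CD26- CAFs (median 37.0) to 13.9 to 29.9 CPM in CD26+ CAFs (median 22.9). The direction held in 8 of 9 mice, the exception being WB1P-Myc mouse 69, one of the pair marked 8x8. The log2 fold change was -0.74 ± 0.14 (edgeR, adjusted p = 0.000268). Its relative Tbx15, active in limb, skin and skeleton, moved less and the other way, with a log2 fold change of 0.30 ± 0.12 (edgeR, adjusted p = 0.0451). That call was kept in only 5 of 20 alternative analyses, with adjusted p up to 0.122, whereas the other 7 genes were called in all 20.

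Twist2, which acts in dermal and facial mesenchyme, was at 10.7 to 29.5 CPM in CD26+ CAFs (median 15.7) and at 13.8 to 60.7 CPM in CD26- CAFs (median 29.0). It was lower in CD26+ cells of 8 of 9 mice, with a log2 fold change of -0.85 ± 0.24 (edgeR, adjusted p = 0.00656). Twist1, its close relative and a regulator of cranial and limb mesenchyme, was at 49.8 to 88.5 CPM in CD26+ CAFs (median 73.9) and 43.8 to 82.3 CPM in CD26- CAFs (median 54.5), with a log2 fold change of 0.37 ± 0.10 (edgeR, adjusted p = 0.00488). CD26+ cells had more Twist1 in 7 of 9 mice.

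The paired-related homeobox genes Prrx1 and Prrx2, both active in limb bud and craniofacial mesenchyme, were not called, with log2 fold changes of 0.32 ± 0.16 and 0.37 ± 0.17. Each was higher in the CD26+ cells of 8 of 9 mice. With the mouse as a replicate block both were called (edgeR, adjusted p = 0.00899 for Prrx1 and 0.0292 for Prrx2), which brought the count to 10 of 10.

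The pericyte and mural list moved with this comparison: 9 of its 10 genes were lower in CD26+ CAFs, and CD26- CAFs had the highest sums. The part of these cells in the lower Snai2, Runx2, Tbx18 and Twist2 of CD26+ CAFs was not tested. Nor was their part in the higher Osr1, Tcf21, Twist1 and Tbx15.

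**Figure D2:**
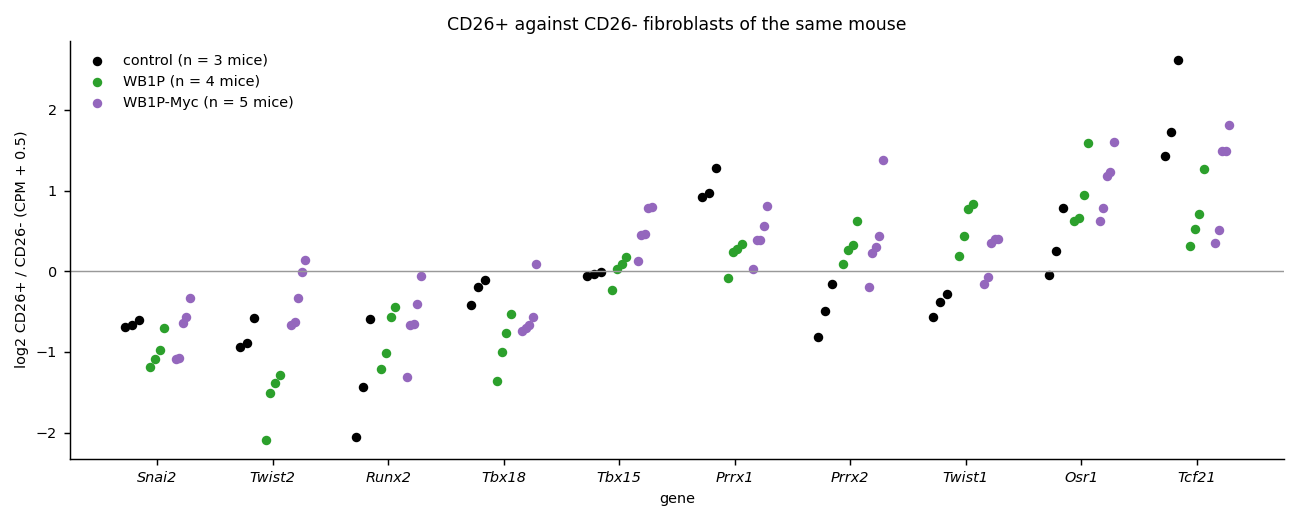
Log2 ratio of CD26+ to CD26- CPM (each plus 0.5) within each mouse that had both classes, for the 10 genes ordered by their fold change in CAFs; black points are control mice, green WB1P and purple WB1P-Myc. Snai2 and Runx2 lie below 0 in all 12 mice, and Twist1 lies below 0 in the 3 controls and above 0 in 7 of the 9 tumor mice.

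Split by tumor model, 6 genes were called in WB1P, where 26% of all genes were, and 4 in WB1P-Myc, where 20% of all genes were. Osr1, Snai2 and Tbx18 were called in both. Runx2, Twist1 and Twist2 passed in WB1P and Tbx15 in WB1P-Myc. Twist2 had a log2 fold change of -1.42 ± 0.35 in WB1P and -0.29 ± 0.32 in WB1P-Myc, but the difference between the models, 1.13 ± 0.47, was not past the threshold (edgeR, adjusted p = 1.00), and 0% of the 16601 genes were. At an unadjusted p under 0.05 stood 549 of all genes and 1 of the 10, and DESeq2 called 0 of the 10. In WB1P-Myc the count rested on single mice: it was 1 without mouse 21 or mouse 23, 2 without mouse 95, 1 without both mice marked 8x8 and 7 with the mouse as a replicate block, which added Prrx1, Tcf21 and Runx2 (edgeR, adjusted p = 0.0113, 0.00299 and 0.0287). In WB1P the block added Tcf21 (edgeR, adjusted p = 0.0166).

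The same contrast in NFs asked whether the CD26 classes differ in control-transplanted glands, which came from other mice than the tumors. In NFs only Prrx1 was called, with 1 of 10 genes against 4.17% of all genes. CD26+ NFs had 265, 462 and 630.0 CPM of Prrx1 and CD26- NFs of the same controls 135, 190.4 and 332 CPM, so it was higher in CD26+ cells of 3 of 3 mice although the ranges overlapped. The log2 fold change was 1.05 ± 0.29 (edgeR, adjusted p = 0.0387). It lost its call without control 44/46 (adjusted p = 0.383) and without any of 8 of the 10 single tumor mice. Marker lists also differed between the NF classes. Endothelial sums were 191 to 520 CPM in CD26+ NFs and 42.3 to 64.6 CPM in CD26- NFs. Mean Tek was 298 and 17.6 CPM, while mean Pecam1 was 9.30 and 11.8 CPM. Pericyte and mural sums were 178 to 196 CPM and 232 to 432 CPM. The part of these lists in the results on NFs was not tested.

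Tcf21, Snai2, Runx2 and Prrx2 did not overlap between the NF classes and missed the threshold. Such a lack of overlap between 3 and 3 sums was seen for 4 of the 10 genes and for 19.9% of all 16601 genes tested. Tcf21 was at 1.82, 5.63 and 6.95 CPM in CD26+ NFs and at 0.362, 0.497 and 1.75 CPM in CD26- NFs, with a log2 fold change of 2.46 ± 0.82 (edgeR, adjusted p = 0.104). Snai2 was at 8.95, 12.7 and 14.6 CPM against 14.8, 19.6 and 23.4 CPM, and Runx2 at 15.6, 55.9 and 63.1 CPM against 66.0, 95.4 and 152 CPM. With the mouse as a replicate block, 5 of the 10 genes were called in NFs: Prrx1, and also Tcf21, Snai2, Runx2 and Twist2 (edgeR, adjusted p = 0.00152, 0.0100, 0.00430 and 0.00933). The directions of these 5 genes in NFs were those seen in CAFs.

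In NFs the log2 fold changes of Twist1, Prrx2 and Tbx15 were -0.41, -0.46 and -0.03, of opposite sign to those in CAFs, and none of them was called. Prrx2 was at 18.2, 27.7 and 31.8 CPM in CD26+ NFs and at 32.4, 35.5 and 39.1 CPM in CD26- NFs, lower in the CD26+ cells of 3 of 3 controls and higher in those of 8 of 9 tumor mice. The difference between its CD26 effect in CAFs and in NFs, 0.83 ± 0.34 on the log2 scale, was not past the threshold (edgeR, adjusted p = 0.254). For Twist1 it was. In the controls it was at 70.1, 80.6 and 91.8 CPM in CD26+ NFs and at 91.7, 111 and 119.9 CPM in CD26- NFs, lower in the CD26+ cells of 3 of 3 mice. Its difference of the CD26 effects was 0.78 ± 0.20 (edgeR, adjusted p = 0.0403), and Twist1 was the only one of the 10 genes past the threshold, against 2.11% of all genes. The adjusted p was 0.0734 without a filter on low counts and 0.288 without control 44/46, and the call was made in 8 of 19 alternatives. With the mouse as a replicate block 2 genes were called, the other being Prrx1 (edgeR, log2 difference -0.75, adjusted p = 0.0240).

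**Figure D3:**
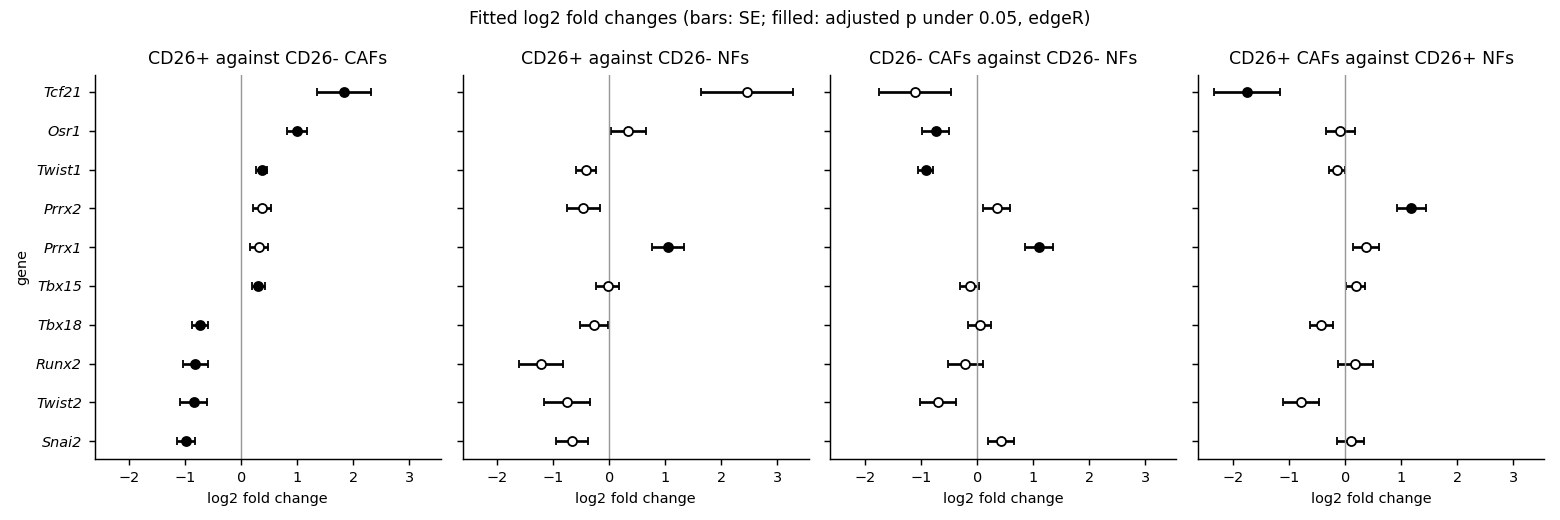
Fitted log2 fold change with its SE (horizontal axis) for each gene in CD26+ against CD26- CAFs, CD26+ against CD26- NFs, CD26- CAFs against CD26- NFs and CD26+ CAFs against CD26+ NFs; filled points have an adjusted p under 0.05 (edgeR). Filled points number 8, 1, 3 and 2 in the 4 panels.

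The second question was how CAFs of each class differ from NFs of the same class. They use the same sums as the CD26 contrasts, and WB1P and WB1P-Myc share their NFs. Among CD26- fibroblasts, 3 of 10 genes were called between CAFs and NFs, where 41.3% of all genes were, and among CD26+ fibroblasts 2 of 10, where 41.2% were. The median absolute log2 fold changes of the 10 genes, 0.56 and 0.28, stood beside 0.51 and 0.53 for all genes.

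In CD26- cells, Twist1 was lower in CAFs and Prrx1 higher, without overlap, which held for 25.1% of all genes. Twist1 was at 43.8 to 82.3 CPM in the 10 CD26- CAF sums (median 54.5), below all 3 CD26- NF sums, with a log2 fold change of -0.92 ± 0.13 (edgeR, adjusted p = 1.32e-05). WB1P gave -1.15 ± 0.15 and WB1P-Myc -0.70 ± 0.15. Prrx1 was at 339 to 571 CPM in CD26- CAFs (median 477), above the 135, 190.4 and 332 CPM of CD26- NFs, with a log2 fold change of 1.10 ± 0.25 (edgeR, adjusted p = 0.00122). Both were called in all 20 alternatives. Other marker lists also differed between these groups. Skeletal muscle sums were 58.6 to 269 CPM in CD26- NFs and 0.698 to 71.5 CPM in CD26- CAFs. Pericyte and mural sums were 232 to 432 CPM in CD26- NFs and 2026 to 9792 CPM in CD26- CAFs. Proliferation sums were 132 to 135 CPM and 222 to 492 CPM. Endothelial sums were 42.3 to 64.6 CPM in CD26- NFs and 60.4 to 387 CPM in CD26- CAFs. The part of these lists in the results on CD26- CAFs against NFs was not tested.

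Osr1 was the third gene called among CD26- cells. CD26- NFs had 50.9, 62.3 and 65.3 CPM, WB1P CD26- CAFs 21.3, 23.9, 27.7, 34.4 and 39.1 CPM and WB1P-Myc CD26- CAFs 18.5, 36.4, 38.3, 56.8 and 65.6 CPM. All WB1P values lay below the NFs, while WB1P-Myc overlapped them. The share of all genes without overlap was not computed for WB1P alone. With both models together it was 25.1%, and there Osr1 overlapped. The log2 fold change over both models was -0.74 ± 0.24 (edgeR, adjusted p = 0.0170), and it missed the threshold without control 82/83 (adjusted p = 0.0644) or control 44/46 (adjusted p = 0.0982).

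By model, CD26- CAFs had 3 genes called in WB1P (Twist1, Prrx1 and Osr1, where 35.4% of all genes were called) and 3 in WB1P-Myc (Twist1, Prrx1 and Twist2, where 36.6% were). In WB1P-Myc, Twist2 fell by 1.00 on the log2 scale (SE 0.36; edgeR, adjusted p = 0.0325). Snai2, Runx2 and Tbx18 were not called between CD26- CAFs and CD26- NFs, with log2 fold changes of 0.42 ± 0.23, -0.21 ± 0.31 and 0.04 ± 0.20. Tbx18 was at 25.8, 34.1 and 43.9 CPM in CD26- NFs, inside the 22.8 to 47.8 CPM of CD26- CAFs. All 10 pericyte and mural markers were higher in these CAFs, and their part in the values of these genes was not tested.

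In CD26+ cells, Prrx2 was higher in CAFs and Tcf21 lower. Prrx2 was at 18.2, 27.7 and 31.8 CPM in CD26+ NFs, at 46.3, 49.3, 63.6 and 88.0 CPM in WB1P CD26+ CAFs and at 45.2, 51.6, 58.2, 60.8 and 64.3 CPM in WB1P-Myc CD26+ CAFs. The CAFs of both models lay above every NF, a lack of overlap shared by 25.2% of all genes, and the log2 fold change was 1.18 ± 0.26 (edgeR, adjusted p = 0.00119), called in all 20 alternatives. It was called in WB1P (1.25 ± 0.28) and in WB1P-Myc (1.11 ± 0.27). Prrx1, by contrast, had a log2 fold change of 0.37 ± 0.24 in CD26+ cells and was not called there. Other marker lists moved with this comparison: the skeletal muscle sums were 16.4 to 70.4 CPM in CD26+ NFs and 3.04 to 9.78 CPM in CD26+ CAFs, and the proliferation sums 84.3 to 211 CPM and 214 to 507 CPM. In the same order, pericyte and mural sums were 178 to 196 CPM and 211 to 455 CPM. Endothelial sums were 191 to 520 CPM and 74.6 to 195 CPM. Immune sums were 18.4 to 31.4 CPM in CD26+ NFs, 61.5 to 147 CPM in WB1P and 21.7 to 250 CPM in WB1P-Myc CD26+ CAFs. Their part in the results on CD26+ cells was not tested.

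Tcf21 had a log2 fold change of -1.75 ± 0.59 in CD26+ CAFs against CD26+ NFs (edgeR, adjusted p = 0.0223). Its adjusted p was 0.0527 without the pair of mice marked 8x8, 0.117 without control 49/52 and 0.0930 without control 44/46. In WB1P the log2 fold change was -2.44 ± 0.75 (edgeR, adjusted p = 0.0160), past the study's limit of 2 that 7.85% of all genes passed, and in WB1P-Myc it was -1.05 ± 0.67. WB1P CD26+ CAFs had 3 genes called, Prrx2, Tcf21 and Twist2, beside 33.5% of all genes, and WB1P-Myc CD26+ CAFs had 1, Prrx2, beside 34.7%.

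The third comparison set WB1P-Myc against WB1P tumors. The models differ by Myc overexpression in the donor epithelium, and only WB1P-Myc held mice marked 8x8 (mice 23 and 69). None of the 10 genes was called in either class (edgeR), where 0.512% of all genes were called in CD26- CAFs and 0% in CD26+ CAFs. At an unadjusted p under 0.05 there were 3 of the 10 genes in CD26- and 1 in CD26+ CAFs, beside 2405 and 646 of all genes, and DESeq2 called 0 of the 10 in both. Twist1 in CD26- CAFs did not overlap between the models, as 3.72% of all genes did not: it was at 43.8, 44.9, 49.3, 51.2 and 53.8 CPM in WB1P and at 55.1, 58.1, 61.2, 75.7 and 82.3 CPM in WB1P-Myc, with a log2 fold change of 0.45 ± 0.13 (edgeR, adjusted p = 0.127).

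The En1 lineage, read from GFP, was compared between libraries of the same CD26 class in CAFs. Each library was a unit, so a mouse was counted more than once. None of the 10 genes was called (edgeR), beside 0% of 15584 genes in CD26- CAFs and 0.0193% in CD26+ CAFs. At an unadjusted p under 0.05 there were 0 of the 10 genes in both classes, beside 641 and 631 of all genes, and DESeq2 called 0 of the 10 in both classes. Runx2 was higher in the En1-positive library of 7 of 7 CD26- CAF pairs, with a log2 fold change of 0.35 ± 0.24, and Twist1 in 6 of 6 CD26+ CAF pairs, with a log2 fold change of 0.21 ± 0.11. Neither was past the threshold.

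Because the list holds 3 pairs of close relatives, their log2 ratios were compared within mice. The ratio of Twist1 to Twist2 was 2.14 ± 0.52 in CD26+ CAFs and 0.93 ± 0.81 in CD26- CAFs of the same 9 mice (SD), a difference of 1.21 that had the same sign in 9 of 9 mice. That of Tbx15 to Tbx18 was 2.43 ± 0.37 and 1.44 ± 0.45, a difference of 0.99, again in 9 of 9 mice. Each had p = 0.00391 in an exact two-sided sign-flip permutation test, the smallest that 9 mice allow, and 0.0293 after Benjamini-Hochberg adjustment over 15 tests. From the same values Twist1 and Tbx15 had been called higher and Twist2 and Tbx18 lower in CD26+ CAFs. The ratios of these pairs restate those calls and are no separate support. Prrx1 to Prrx2 did not show a difference, at -0.06 (exact permutation p = 0.844), with the sign split 5 to 4 over the 9 mice. The other comparisons of these ratios were not past the threshold after adjustment.

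**Figure D4:**
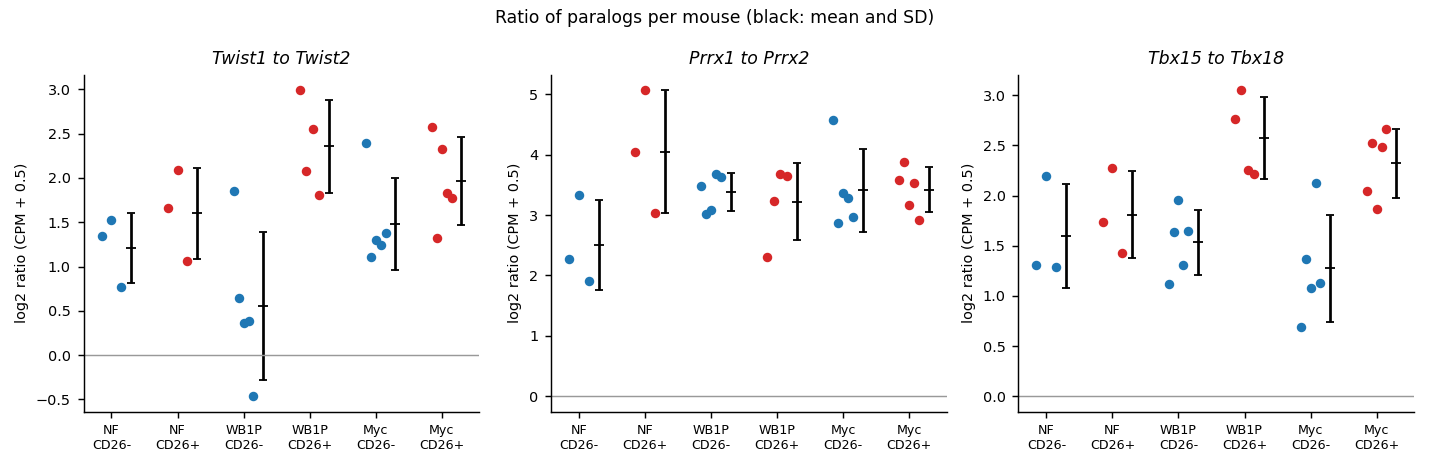
Log2 ratio of CPM (each plus 0.5) between the members of 3 gene pairs in every mouse, in the 6 groups; blue points are CD26- sums, red points CD26+ sums, and black marks the mean and SD. Twist1 to Twist2 and Tbx15 to Tbx18 lie higher in CD26+ than in CD26- CAFs of the same 9 mice, and Prrx1 to Prrx2 does not.

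Across the 25 sums the members did not form a single pattern. Pearson's r on log2 CPM was 0.71 between Tbx18 and Snai2, 0.69 between Tbx18 and Runx2 and 0.66 between Snai2 and Runx2, and Tcf21 stood against Runx2 at -0.71 and beside Osr1 at 0.65. After centring on the group means, the value for Tbx18 and Runx2 was 0.69 and that for Tcf21 and Osr1 was 0.10, so the latter followed the groups. The centred values were 0.44 for Tbx18 and Snai2, 0.31 for Snai2 and Runx2 and -0.46 for Tcf21 and Runx2. Twist1 and Twist2 had r = 0.06. These values describe sums that share mice and a common scaling, and carry no test.

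For each member, up to 3 genes with the most similar pattern over the 25 sums were taken among genes averaging at least 5 CPM. Twist1 was most like Ubtf, Ech1 and Tpmt (r = 0.88, 0.87 and 0.85) and Twist2 most like Pde4d and Med20 (0.87 and 0.82). Nox4, Nfkbiz and Zfp462 followed Prrx1 (0.89, 0.88 and 0.88), and BC004004, Sra1 and Copz2 followed Prrx2 (0.92, 0.90 and 0.88). For Tbx15 they were Bicc1, Hacd4 and Sgpp1 (0.80, 0.80 and 0.79), and for Tbx18 Zfp532, Rnf14 and Rnf157 (0.91, 0.89 and 0.88). Daglb, Ppp2r2b and Smpd3 were closest to Tcf21 (0.84, 0.83 and 0.82), and Lgi4, Adamts5 and Rnase4 to Osr1 (0.90, 0.86 and 0.86). Snai2 was closest to Speg, Nuak1 and Ehd3 (0.91, 0.87 and 0.87) and Runx2 to B4galnt1, Dock5 and Mpzl1 (0.87, 0.86 and 0.85).

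Other genes of the same pathways were described by counts, to be read beside the shares of all genes tested. These lists were chosen with earlier results of these data known, so the counts do not test the lists. From CD26- to CD26+ CAFs, 19.1% of all genes rose and 19.9% fell, and from CD26- NFs to CD26- CAFs 20.4% rose and 21% fell. Of 7 basic helix-loop-helix partners and Id inhibitors, 0 were higher and 3 lower in CD26+ than CD26- CAFs, with a median log2 fold change of -0.44 beside 0.01 for all genes. Id4 and Id1, which sequester E proteins, fell by 1.81 and 1.70 on the log2 scale. In CD26- CAFs against CD26- NFs 2 were lower: the E protein genes Tcf4 fell by 1.46 and Tcf12 by 0.36.

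Of 4 tested Snail and Zeb repressors, which act on E-boxes as SNAI2 does, Snai1 was lower (-1.03 ± 0.19) and Zeb1 higher (0.61 ± 0.14) in CD26+ CAFs, and in CD26- CAFs against CD26- NFs the directions were opposite, with Snai1 at 0.86 ± 0.28 and Zeb1 at -0.87 ± 0.18. Snai1 thus had the direction of Snai2 between the CD26 classes of CAFs.

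The RUNX family differed from Runx2 between CAFs and NFs. Runx1, known from blood stem cells and also expressed in stroma, was at 12.5, 15.9 and 22.3 CPM in CD26- NFs. The CD26- CAFs had 174 to 362 CPM of it, and the fitted log2 change was 3.99 ± 0.33 (edgeR, adjusted p = 1.26e-08). Runx3 was at 0.365 to 0.399 CPM in CD26- NFs, at 2.94 to 13.01 CPM in CD26- CAFs and at 0 to 2.87 CPM in CD26+ CAFs, and was called in both comparisons. Runx2 itself was not called between CD26- CAFs and CD26- NFs.

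Of 7 tested genes widely described as RUNX2 targets, 6 were lower in CD26+ than in CD26- CAFs and 0 higher, where 19.9% of all genes were lower, and 5 rose and 0 fell between CD26- NFs and CD26- CAFs, where 20.4% of all genes rose. Mmp13, a collagenase of cartilage and bone, was at 0.183 to 1.70 CPM in CD26- NFs and at 151 to 3672 CPM in CD26- CAFs. Col10a1, a collagen of hypertrophic cartilage, was at 0 in all 3 CD26- NF sums, at 0.731 to 634 CPM in CD26- CAFs and at 0.0455 to 2.87 CPM in CD26+ CAFs. Ibsp, a bone matrix protein gene, was at 0 in 8 of 9 CD26+ CAF sums and at up to 7.75 CPM in CD26- CAFs.

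Of 9 tested T-box genes other than the members, 1 was higher and 4 lower in CD26+ CAFs, where 39% of all genes were called. Tbx2, a repressor of the family, was at 11.6 to 70.5 CPM in CD26- CAFs and at 0.547 to 3.85 CPM in CD26+ CAFs. Tbx20, known from heart development, was at 2.56 to 19.5 CPM in CD26- CAFs, at 0.181 CPM or less in CD26+ CAFs and at 0 in the 3 CD26- NF sums. Tbx1 was at 0.770 CPM or less in CD26- CAFs and at 0.616 to 1.23 CPM in CD26- NFs.

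Among 21 tested regulators of limb and skeletal mesenchyme, 4 were higher and 10 lower in CD26+ CAFs with a median that fell by 1.00 on the log2 scale, and 9 rose and 1 fell between CD26- NFs and CD26- CAFs, where 41.3% of all genes changed. Alx4, a limb and skull homeobox gene, was at 3.48 to 63.8 CPM in CD26- CAFs and at 1.09 to 6.59 CPM in CD26+ CAFs. Dlx5, active in bone formation, was at 0.0725 to 0.232 CPM in CD26- NFs and at 1.05 to 18.1 CPM in CD26- CAFs. Sp7, which acts downstream of Runx2 in osteoblasts, reached 30.7 CPM in CD26- CAFs with a median of 0.226 CPM.

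Of 30 other stromal transcription factors, 6 were higher and 16 lower in CD26+ than in CD26- CAFs (median log2 fold change -0.57), and 7 rose and 8 fell between CD26- NFs and CD26- CAFs. Foxc2, a forkhead factor of mesenchyme and vessels, was at 8.74 to 39.9 CPM in CD26- CAFs, at 0.0909 to 0.919 CPM in CD26+ CAFs and at 1.10 to 5.25 CPM in CD26- NFs. Wt1 was at 0.132 to 0.913 CPM in CD26- NFs and at 12.1 to 41.7 CPM in CD26- CAFs. Foxl1 was at 4.88 CPM or less in CD26- CAFs and at 0.182 CPM or less in CD26+ CAFs.

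Of 9 genes widely described as targets of TWIST1, SNAI2 or PRRX1, 2 rose and 2 fell from CD26- to CD26+ CAFs. Between CD26- NFs and CD26- CAFs, 3 rose and 0 fell. Fn1, encoding fibronectin, had a log2 fold change of 0.74 ± 0.19 in CD26+ against CD26- CAFs, and Cldn1, a tight junction gene, -1.59 ± 0.53. Tnc, encoding tenascin C, was at 57.4 to 627 CPM in CD26- NFs and at 2282 to 9615 CPM in CD26- CAFs, and Cdh2, encoding N-cadherin, at 1.92 to 2.45 CPM and 18.4 to 56.7 CPM.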

How the data were processed

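Fibroblasts were sorted by flow cytometry and their polyA RNA was sequenced as stranded libraries. The authors deposited raw read counts per gene for all 44 libraries. Per the submitters' processing notes, reads were aligned with HISAT2 2.2.1 to GRCm38; the counting tool and annotation are not given in the sources used here. A row naming no gene held 0 counts and was left out.

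Counts were added per mouse and CD26 class, since libraries of 1 animal are not independent. Genes were filtered with filterByExpr, scaled by TMM and tested with the quasi-likelihood test of edgeR 4.0.16 in R 4.3.3 over 6 groups, with Benjamini-Hochberg adjustment over all 16601 genes and a call at 0.05. CPM values are TMM-scaled. En1 lineage was tested on single libraries (15584 genes). Ratios of relatives were tested by exact permutation (scipy 1.17.1, pseudocount 0.5 CPM). Same-numbered sums of both CD26 classes come from 1 animal; their deviations from the group means correlated in all 12 pairs (0.24 to 0.67), so the mouse pairs the samples, and blocked values are given where they change a call. The fit was checked on simulated counts drawn without a mouse effect, so that check does not cover the pairing. No pair of libraries was a copy.

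The members and lists were chosen with earlier results of these data known. Named genes were the 10 members, for each the 3 genes with the highest correlation (1 of these is not reported here), and up to 4 called genes of each related list with the largest fold changes. Promoters came from RefSeq. Alternatives were another normalization, no filter, DESeq2 1.42.0, single libraries, the groups compared alone, limma 3.58.1 with mouse as a random effect, the mouse block, and leaving out each mouse or the pair marked 8x8. P-values of the edgeR tests on sums measure the spread between mice, but without the block they take both sums of a mouse as separate. Those on single libraries, as for En1, rest in part on libraries of the same mouse.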

Additional observations from a re-analysis of the deposited data

Results flagged for a closer look

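Twist1 in CD26+ CAFs of WB1P-Myc mouse 67 was at 80.6 CPM, apart from the other 4 mice, of which the nearest was at 74.2 CPM. Tcf21 in CD26- CAFs of WB1P-Myc mouse 95 was at 1.26 CPM, where the nearest mouse was at 0.639 CPM. These were 2 of 40 groups of values examined for a single distant sample, and chance gives about 2.

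The CD26 effect on Twist1 differed between CAFs and NFs by 0.78 on the log2 scale (edgeR, adjusted p = 0.0403). CD26+ cells had less Twist1 in 3 of 3 controls and more in 7 of 9 tumor mice. The call was lost without the low-count filter and on leaving out any of the 3 controls.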

How the results depend on the processing

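No called value changed its direction. Among the single-gene values recomputed under an alternative, 2988 kept their side of the threshold, 82 lost it and 69 gained it. For CD26+ against CD26- NFs, the count of 1 gene became 0 without the low-count filter, without the mice marked 8x8 and with only the groups compared, 3 with DESeq2 and 5 with single libraries or with the mouse as a replicate block. For CD26+ against CD26- CAFs in WB1P-Myc, 4 became 2 without the filter, 1 without the mice marked 8x8 and 7 with the replicate block. For the difference of the CD26 effect between CAFs and NFs, 1 became 0 without the filter and without the mice marked 8x8, and 2 with the replicate block. Single libraries, which count a mouse more than once, gave 7 in place of 3 for CD26- CAFs against NFs, 5 in place of 2 for CD26+ CAFs against NFs, 5 in place of 3 for WB1P CD26- CAFs, 3 in place of 1 for WB1P-Myc CD26+ CAFs and 2 in place of 0 for WB1P-Myc against WB1P CD26- CAFs. The cause was not tested. Pairing by the mouse block moved no other count by more than 1.5 times.

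Leaving out 1 mouse gave 7 to 8 genes for the CD26 classes of CAFs, 5 to 6 in WB1P and 1 to 6 in WB1P-Myc, and 0 to 1 in NFs. It gave 2 to 4 for CD26- CAFs against NFs, 1 to 3 for CD26+ CAFs against NFs, 1 to 4 for WB1P CD26+ CAFs, 1 to 2 for WB1P-Myc CD26+ CAFs and 0 to 1 for the difference of the CD26 effect. The count for CD26+ CAFs against NFs was 1 without control 44/46, that for WB1P CD26+ CAFs 1 without control 44/46 or WB1P mouse 12, and that for WB1P-Myc CD26+ CAFs 2 without control 49/52. The difference of the CD26 effect had 0 genes without any of the 3 controls, without WB1P mouse 12, 14 or 35, and without WB1P-Myc mouse 67, 95 or 23. The NF count was 0 without control 44/46, WB1P mouse 93, 12, 14 or 35, or WB1P-Myc mouse 21, 67, 23 or 69.

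The log2 ratio difference of Twist1 to Twist2 between CD26 classes of CAFs was 1.07 to 1.34 without single mice and 1.44 without the mice marked 8x8, and that of Tbx15 to Tbx18 was 0.93 to 1.07 and 1.06. The adjusted exact permutation p was 0.0586 with 8 mice and 0.117 with 7, the smallest that so few pairs allow. Tcf21 lay near 0 CPM in CD26- CAFs, where depth limits its fold change.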
